A study of Mus musculus with 38 samples.

Results

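Terminally exhausted OT-1 CD8+ T cells (Tterm) labelled as aged were compared with Tterm labelled as young within a single sequencing batch entry. The members are 10 of the 38 libraries of the series, chosen by their labels with earlier results of these data known. They are 5 aged libraries (64-68 weeks, Tterm 1 to 5) and 5 young libraries (10-12 weeks, Tterm 1 to 5), all entered as batch 4 & 5. All 10 are labelled C57BL/6J, wild type, and came out of B16-OVA tumours, a mouse melanoma that makes ovalbumin. OT-1 cells carry a transgenic T cell receptor for an ovalbumin peptide, so both ages saw the tumour through the same receptor. The series text places collection at day 15 and the Tterm gate at Slamf6- Tim-3+. The hosts in which the OT-1 cells of each age had lived are not given in the sources used here. The age label may thus be that of the cell donor or of the host. Other libraries served for description: 3 OT-1 Tterm libraries of batch 6 (aged 6; young 6 and 7), which entered no call, and 4 naive splenic CD8+ libraries of batch 3 (2 aged, 2 young, same ages). Endogenous Tterm from B16-OVA tumours at the same ages (batch 1 & 2; 3 aged, 5 young) are in another table and are set beside some results.

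CD8+ T cells that meet antigen without end in a tumour pass through a progenitor exhausted state, which keeps the factor TCF-1 and can renew itself, into a terminal state marked by surface proteins such as Tim-3 (gene Havcr2), PD-1 (Pdcd1) and CD39 (Entpd1). The passage is written into chromatin: enhancers of progenitor genes close and those of effector and inhibitory genes open, under NFAT, AP-1, TOX and RUNX factors. ATAC-seq reads this out, because the Tn5 transposase cuts where DNA is accessible and reads accumulate there as peaks. In such bulk libraries, a change in openness per cell and a change in the share of cells with an open site cannot be told apart.

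The table that holds these libraries listed 169323 peaks (mm10), of which 84091 had a mean of 10 or more normalized reads over its 21 libraries and were tested. Values are normalized reads per peak, that is, reads divided by the authors' size factor of the library. Depth was 8.29 to 15.6 megareads in peaks in aged and 7.45 to 12.6 in young libraries, and 27.7 in aged Tterm 6, against 13.5 and 15.5 in young Tterm 6 and 7. The peak at the start of Havcr2 held 969.5 to 1249 in aged and 749 to 931 in young Tterm, against 374 to 430 in young OT-1 Tprog, which matches the label, as does a Tcf7 intron peak at 308 to 440 in aged and 213 to 391 in young Tterm, against 979 to 993 in young Tprog. Peaks chosen for other lineages were not all low. Few reads stood at Csf1r (4.41 to 22.6 in aged, 7.02 to 20.5 in young) and Foxp3 (8.81 to 19.98 in aged, 3.10 to 25.95 in young). More stood at the B cell gene Pax5 (91.5 to 128 in aged, 91.5 to 134 in young), at the melanocyte genes Mlana (113 to 176 in aged, 102 to 169 in young) and Pmel (290.3 to 367 in aged, 273 to 366 in young), and at Cd4 (354 to 536 in aged, 243 to 371 in young; log2 0.54 ± 0.15, adjusted p 0.0696). Naive splenic cells held 87.4 to 135 at Mlana, 435 to 491 at Pmel and 259.6 to 374 at Cd4, and 17.4 to 38.6 at Pax5. No read share or depth measure separated the ages past the threshold. The share of reads near a gene end was nearest, 38.1 to 43.3% in aged and 40.4 to 47.3% in young libraries (exact two-sided permutation p = 0.0952, 0.258 adjusted over 5 measures, with 0.00794 the smallest exact p that 5 libraries against 5 allow). In the series text, sorted cells were combined into 2 or 3 biological replicates (5000 to 50000 cells), while 5 libraries are listed per age, so the p-values measure the spread between libraries, part of which may be technical.

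The promoters below show the DNA at gene starts whose peak differed between the ages. Candidates were called peaks with the largest differences in each direction whose aged and young libraries did not overlap. The lack of overlap at these promoters thus follows from the choice. They are RefSeq windows (GRCm38.p6, plus strand, 250 bases before to 50 after the gene start). The windows of Gm14139 (chr2:150181505-150181804) and Sgk1 (chr10:21985854-21986153) lay in peaks that were higher in aged cells. Lrrk2 (chr15:91672974-91673273), Kit (chr5:75574737-75575036) and Myo10 (chr15:25622300-25622599) lay in peaks that were lower. Capitals mark matches to 7 motif families searched on both strands: GGGCGG of SP/KLF factors in Lrrk2, Kit and Myo10, where overlapping matches form one stretch, and TGGAAAA of NFAT in Gm14139. Sgk1 holds no match. By the same rule the windows of Gm7967 and Xlr3b (higher) and of Trat1 (lower) were also chosen, and they are not printed. Gm7967 and Xlr3b hold no match. Trat1, with the largest difference of the lower windows chosen, holds CTTTGAT of TCF/LEF factors and no GGGCGG.
Gm14139: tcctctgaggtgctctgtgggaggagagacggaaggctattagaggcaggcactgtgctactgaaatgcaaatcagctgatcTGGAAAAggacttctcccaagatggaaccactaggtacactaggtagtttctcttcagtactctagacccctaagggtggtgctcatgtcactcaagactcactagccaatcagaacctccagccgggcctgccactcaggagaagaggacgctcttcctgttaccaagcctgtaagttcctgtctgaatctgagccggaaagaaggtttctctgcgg
Sgk1: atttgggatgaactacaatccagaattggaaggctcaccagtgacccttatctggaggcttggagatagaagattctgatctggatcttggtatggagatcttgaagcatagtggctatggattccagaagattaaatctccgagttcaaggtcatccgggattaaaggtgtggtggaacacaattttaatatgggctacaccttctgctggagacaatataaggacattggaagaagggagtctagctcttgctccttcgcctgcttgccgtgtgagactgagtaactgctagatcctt
Lrrk2: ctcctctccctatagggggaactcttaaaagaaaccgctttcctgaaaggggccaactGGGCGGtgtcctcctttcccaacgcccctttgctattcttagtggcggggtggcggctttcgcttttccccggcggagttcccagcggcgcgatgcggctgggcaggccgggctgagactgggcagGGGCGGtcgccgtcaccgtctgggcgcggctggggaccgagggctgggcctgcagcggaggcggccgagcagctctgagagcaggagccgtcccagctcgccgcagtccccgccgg
Kit: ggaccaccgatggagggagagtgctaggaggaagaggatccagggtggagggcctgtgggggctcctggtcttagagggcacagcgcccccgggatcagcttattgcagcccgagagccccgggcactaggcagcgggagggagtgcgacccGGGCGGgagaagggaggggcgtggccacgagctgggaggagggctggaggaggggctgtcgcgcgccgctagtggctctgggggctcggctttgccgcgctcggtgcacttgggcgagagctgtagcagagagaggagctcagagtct
Myo10: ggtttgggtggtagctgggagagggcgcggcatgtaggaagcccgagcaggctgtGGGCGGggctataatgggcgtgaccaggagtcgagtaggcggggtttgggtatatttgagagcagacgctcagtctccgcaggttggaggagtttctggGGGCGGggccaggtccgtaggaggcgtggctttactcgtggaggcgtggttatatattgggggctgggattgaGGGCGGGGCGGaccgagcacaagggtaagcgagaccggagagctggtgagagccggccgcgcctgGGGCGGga

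Of 32851 RefSeq mouse promoter windows, 35.7% hold GGGCGG. Among windows that overlap a called peak the share was 22.5% of 89 in peaks higher in aged cells and 56.0% of 116 in peaks lower in aged cells. For AP-1 (TGANTCA) the shares were 13.5% of the higher, 4.31% of the lower and 7.81% of all windows. TCF/LEF letters (CTTTGAT or CTTTGAA) stood in 14.6% of the higher, 4.31% of the lower and 8.65% of all windows, and RUNX letters (TGTGGTT) in 11.2%, 3.45% and 5.27%. CRE (TGACGTC), NFAT and ETS (CCGGAAG) stood in 3.37%, 8.99% and 6.74% of the higher and 2.59%, 8.62% and 11.2% of the lower windows, beside 3.21%, 6.73% and 8.86% of all. The windows include alternative starts of a gene, so they are not independent, and a match is a run of letters, not a bound site. Shares of all windows were taken over every RefSeq window, in a tested peak or not. The share over windows in tested peaks alone was not computed. Whether the gaps from the share of all windows are particular to the called windows, as against other open promoters, was therefore not tested.

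Sgk1 is the gene of a serum- and glucocorticoid-induced kinase, and its peak (chr10:21985603-21986579) lay at a RefSeq start inside the gene. There aged libraries 1 to 5 held 123, 129.6, 215, 113 and 83.9 normalized reads and young libraries 1 to 5 held 21.9, 26.3, 17.6, 28.4 and 32.7. The groups did not overlap (log2 2.30 ± 0.24, adjusted p 3.73e-05; differences here and below are aged minus young on log2 of normalized reads plus 1, ± SE, with Benjamini-Hochberg p of limma over all 84091 peaks). At the start of Lrrk2, the gene of a leucine-rich repeat kinase (chr15:91672777-91673795), aged libraries held 17.2, 7.93, 12.1, 11.2 and 10.7 and young libraries 35.5, 63.9, 66.2, 58.6 and 44.4. Every aged library lay under every young one (log2 -2.10 ± 0.28, adjusted p 0.000394). At the start of Kit, the gene of the stem cell factor receptor (chr5:75574653-75576329), aged libraries held 33.1, 8.81, 17.3, 22.3 and 16.0 and young libraries 99.7, 41.4, 58.0, 85.1 and 53.8, again without overlap (log2 -1.79 ± 0.32, adjusted p 0.0043). The most open of these starts was that of Myo10 (chr15:25621801-25623733), an unconventional myosin of filopodia, with 236, 321, 332, 318 and 325 in aged and 735, 948, 1061, 921 and 985 in young libraries. Every aged value lay under every young one (log2 -1.60 ± 0.14, adjusted p 6.53e-06). In batch 6 the Sgk1 start held 41.6 in aged Tterm 6, against 22.2 and 30.5 in young Tterm 6 and 7, and the Myo10 start 619.8 in aged Tterm 6, against 1224 and 777 in young Tterm 6 and 7. The Lrrk2 start there held 17.5 in aged Tterm 6, against 24.4 and 36.7 in young Tterm 6 and 7. The Kit start there held 26.1 in aged Tterm 6, against 16.7 and 29.7 in young Tterm 6 and 7, so the aged library was not below both young ones, and this call was lost in both fits that included batch 6. Naive cells showed the same side at Kit, with 14.3 and 9.15 in aged naive cells, against 54.0 and 61.7 in young naive cells. Endogenous Tterm, scaled on their own, stood on the other side at the Kit start. They held 229 to 271 in aged (n = 3), against 82.0 to 215 in young (n = 5).

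Across the table, 1573 peaks were higher (1.87% of those tested) and 436 were lower (0.518%) in aged Tterm at an adjusted p under 0.05, 2.39% in either direction. Before adjustment, 13021 peaks (15.5%) had a p under 0.05. Values of the 5 aged and 5 young libraries did not overlap at 1391 of the higher and 378 of the lower peaks, beside 4.88% of all peaks tested. The calls were made on these same libraries, so this lack of overlap follows largely from the call. Differences of the called peaks ran from 0.45 to 3.93 on the log2 scale for higher and from 0.52 to 3.45 in size for lower peaks, with medians of 0.86 and 1.17, and 583 higher and 293 lower peaks differed by 2-fold or more. Higher peaks were well read in both ages (median mean 157 normalized reads in aged, 82.6 in young), lower peaks less so (36.6 in aged, 89.0 in young).

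**Figure D1:**
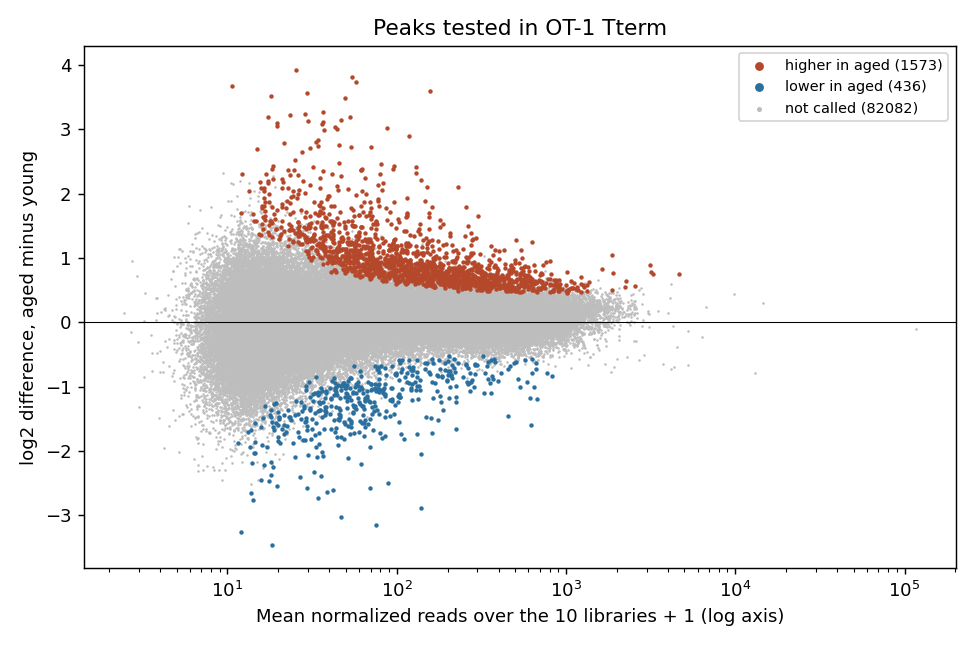
Each point is a tested peak, with its mean normalized reads over the 10 libraries (plus 1) on a log axis and its log2 difference between aged and young OT-1 Tterm on the other; called peaks are coloured by direction. The 1573 higher calls reach down to differences of 0.45 at deeply read peaks, and the largest differences of either sign sit at peaks with few reads.

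The share of calls that were higher depended on scaling. It was 78.3% with the deposited size factors, 66.2% with equal library totals (2358 higher, 1204 lower) and 60.1% after quantile normalization (2328 higher, 1547 lower), while no called peak passed with the opposite sign under any setting tried. The median difference of all tested peaks was 0.03 with the deposited scaling, -0.05 with equal totals and -0.01 after quantile normalization. Counts of higher and lower peaks were smaller without single libraries: 838 and 344 without aged 2, 636 and 299 without aged 3, 913 and 370 without aged 4, 1025 and 300 without young 2, 902 and 283 without young 4, and 877 and 274 without young 5. Adding batch 6 with a term for it left 273 higher and 146 lower peaks in a fit of all 13 OT-1 Tterm libraries, of which 414 of 419 are among the calls above. The fit of all 21 libraries of the table left 150 and 74, and all 224 are among them.

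The largest increases in aged Tterm stood at sites with few reads in young Tterm, many of them far from any gene. The 12 largest in each direction were taken from called peaks whose aged and young libraries did not overlap. The peak chr1:107533485-107534731, inside Serpinb10, a serine protease inhibitor gene, held 61.0, 112, 159, 92.2 and 75.9 normalized reads in aged libraries 1 to 5 and 2.73, 7.52, 8.28, 10.1 and 3.51 in young libraries 1 to 5. The ages did not overlap (log2 3.81 ± 0.35, adjusted p 1.08e-05). The same peak held 249 and 244 in aged naive cells, against 15.4 and 13.6 in young naive cells, and in batch 6 39.99 in aged Tterm 6, against 4.44 and 51.5 in young Tterm 6 and 7, where the young libraries lay on either side of the aged one. A site on chromosome 7 with no protein-coding gene within 100000 bp (chr7:124930372-124931429) was the most open of the 12 largest, with 294, 340.2, 357, 246 and 206 in aged and 21.9, 21.3, 32.1, 20.1 and 18.7 in young libraries. The lowest aged value lay far above the highest young one (log2 3.60 ± 0.20, adjusted p 2.83e-08). In batch 6 the young libraries lay on both sides of the aged one, with 27.3 in aged Tterm 6, against 169.9 and 6.25 in young Tterm 6 and 7, and endogenous Tterm, measured in another table with its own scaling, held 45.6 to 251 in aged endogenous Tterm (n = 3), against 13.5 to 63.8 in young (n = 5).

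Asic2, an acid-sensing ion channel gene, had 2 peaks inside the gene among the 12 largest. At chr11:81446159-81447108 aged libraries held 70.3, 94.3, 154, 71.2 and 79.9 and young libraries 6.83, 8.78, 14.5, 11.0 and 5.85 (log2 3.19 ± 0.29, adjusted p 1.08e-05). Aged 3 was the highest of all and the rest of the aged libraries still lay above every young one. Naive cells differed little with age at this site, 3.36 and 5.88 in aged naive cells, against 7.07 and 4.81 in young naive cells, and the difference between the Tterm and naive age effects was 3.51 (limma interaction, adjusted p = 0.0015). At the start of Gm14139 (chr2:150181219-150182236), the promoter printed above, aged libraries held 76.9, 89.9, 89.2, 101 and 59.9 and young libraries 10.9, 12.5, 5.17, 8.24 and 7.02, without overlap (log2 3.14 ± 0.27, adjusted p 6.53e-06). Here naive cells also differed, with 62.2 and 59.5 in aged naive cells, against 10.9 and 10.4 in young naive cells. The largest difference of all was at chrX:16953060-16953694, a peak 41286 bp from Ndp, a Frizzled ligand gene, with 55.7, 73.2, 45.9, 33.5 and 18.6 in aged and 1.37, 0, 0, 9.16 and 5.85 in young libraries (log2 3.93 ± 0.63, adjusted p 0.00187). Young values there are a few reads each, and batch 6 showed no such gap, with 3.67 in aged Tterm 6, against 4.44 and 7.81 in young Tterm 6 and 7. The other members of the 12 were a site inside Gramd3 (3.52), a second Ndp site (3.19, not called without aged 3), the other Asic2 site (3.56) and 4 sites without a gene on chromosomes 1, 7 and 15 (3.22 to 3.73).

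Of the 12 largest decreases, 7 lay between genes. Near Msc, which encodes the helix-loop-helix repressor musculin, chr1:14746920-14747925 held 5.30, 4.41, 19.9, 16.8 and 6.66 in aged and 66.9, 100.3, 77.6, 65.0 and 98.2 in young libraries (log2 -3.03 ± 0.35, adjusted p 0.000115). No aged library reached the lowest young one, and 4 Msc peaks were lower in all. Near Tshz2, a zinc finger homeobox gene, chr2:169589405-169590859 held 46.4, 8.81, 32.0, 53.1 and 39.95 in aged and 245, 226, 246, 287 and 191 in young libraries (log2 -2.89 ± 0.33, adjusted p 0.000101). Batch 6 stood the other way round, with 329 in aged Tterm 6, against 22.2 and 149 in young Tterm 6 and 7. Inside Rab7b, a small GTPase of endosome to Golgi transport, chr1:131703293-131704134 held 26.5, 39.7, 22.5, 11.2 and 36.0 in aged and 126, 169, 177, 146 and 119 in young libraries (log2 -2.50 ± 0.27, adjusted p 5.71e-05), and all aged libraries lay well under all young ones. Rab7b stayed called under every alternative tried, those with batch 6 included.

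Among those between genes, 3 lay 37560 to 54188 bp from Fam155a, which encodes a subunit of the NALCN sodium leak channel. The most open, chr8:9810889-9811674, held 21.2, 0.881, 25.1, 15.4 and 33.3 in aged and 105, 179, 164, 103 and 102 in young libraries (log2 -3.15 ± 0.54, adjusted p 0.00349). Young libraries varied among themselves here but none came down to the aged level. Endogenous Tterm showed the same order, 7.75 to 32.4 in aged endogenous Tterm (n = 3), against 129 to 205 in young (n = 5), whereas batch 6 showed the opposite, 104 in aged Tterm 6, against 18.9 and 30.5 in young Tterm 6 and 7. None of the 3 was called in either fit that included batch 6. Ank3, whose product ankyrin-G ties membrane proteins to the spectrin skeleton, had 6.63, 15.0, 15.6, 39.1 and 29.3 in aged and 79.2, 160.5, 131, 112 and 94.7 in young libraries at chr10:69542391-69543581 (log2 -2.58 ± 0.35, adjusted p 0.000477). Trat1, an adaptor of the T cell receptor, was lower at a site 24611 bp away, at 12.4 ± 12.7 in aged and 50.4 ± 10.7 in young libraries (SD, n = 5 each; log2 -2.32 ± 0.42, adjusted p 0.00543). It was also lower at a RefSeq start inside the gene, at 6.37 ± 4.395 in aged and 27.7 ± 5.24 in young libraries (log2 -2.17 ± 0.43, adjusted p 0.0106). Another Msc site, a Smarcal1 site and a Gng12 site completed the 12 with a Nav1 site (log2 -2.60 ± 0.62, adjusted p 0.0324) that was not called with a pseudocount of 0.5 or without any one of young 2, 3, 4 and 5.

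In batch 6, 7 of the 12 largest increases and 6 of the 12 largest decreases had the same sign.

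**Figure D2:**
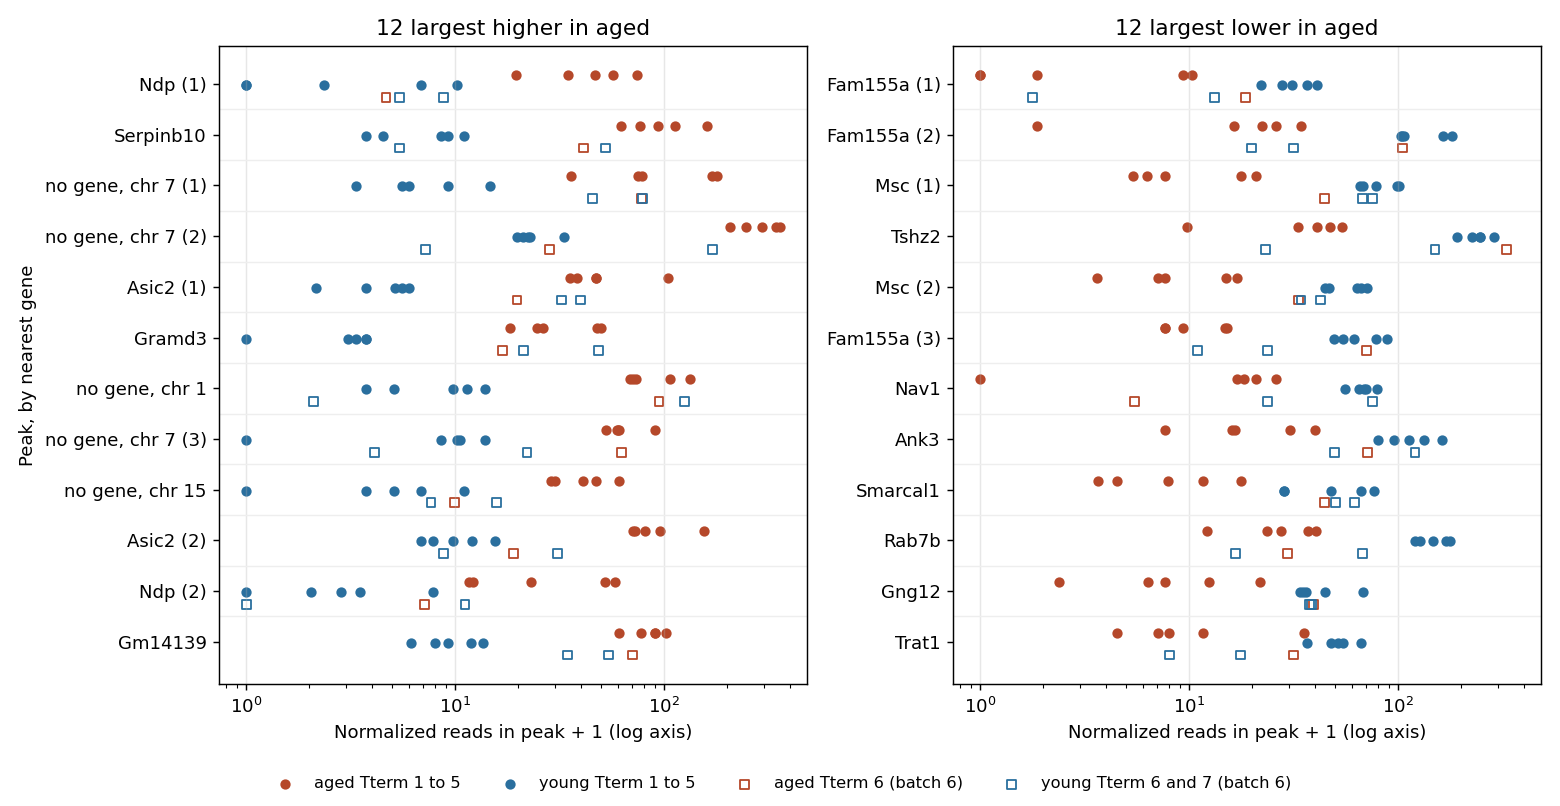
Normalized reads plus 1 in each library (log axis) at the 12 peaks of largest difference in each direction, with 1 row per peak; filled points are aged and young Tterm 1 to 5, open squares the batch 6 libraries. Filled points of the ages do not overlap in any row, because the rule of choice required this. At Fam155a the aged batch 6 square lies above both young ones, against the order of the filled points.

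Many called peaks lay in runs along the chromosomes. Runs of 5 or more called peaks of the same direction, with gaps of 100000 bp or less, numbered 54 and held 409 of the 2009 calls, 38 runs higher (268 peaks) and 16 lower (141 peaks). The run rule was chosen after the values were seen, so the runs are described without a test. A run begins and ends at called peaks. The high shares of called peaks in runs, and the gaps between the ages in summed reads, thus follow in part from the choice. On chromosome 15, 24 of 38 tested peaks between 25414234 and 25765062, over Myo10 and Basp1, were lower, and none of the 38 was positive. Summed over the 38 peaks, aged libraries held 1194, 1157, 1496, 1669 and 1619 normalized reads and young libraries 3281, 3952, 4155, 3634 and 3747. The ages were apart in every library. In batch 6 the sum was 2674 in aged Tterm 6, against 3627 and 2961 in young Tterm 6 and 7, and in naive cells 829.9 and 748 in aged naive cells, against 1928 and 1898 in young naive cells.

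A run on chromosome 7 without a protein-coding gene, 136037044 to 136282050, had 16 of 17 tested peaks higher. Its sum was 1459, 837, 1252, 772 and 1269 in aged and 305, 221, 219, 179 and 253 in young libraries. The lowest aged sum lay above the highest young one. Batch 6 held 599 in aged Tterm 6, against 153 and 549.8 in young Tterm 6 and 7, and naive cells held 191 and 209.8 in aged naive cells, against 112 and 131 in young naive cells, with all 16 called peaks positive in batch 6 and 6 of 16 in naive cells. A second gene-free run on the same chromosome, from 124874009 to 124954983, had all 6 tested peaks higher, with sums of 716, 784, 867, 594 and 549 in aged and 80.6, 76.5, 73.5, 75.1 and 81.9 in young libraries. The young values lay close together and far under the aged ones. Young Tterm 6, however, held 255, above aged Tterm 6 at 199.5 and young Tterm 7 at 90.6.

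On chromosome 3, 9 of 9 tested peaks from 61488730 to 61512969 and 7 of 7 from 62932665 to 62961736 were higher, and neither stretch holds a protein-coding gene. In the one starting at 62932665, aged libraries summed to 384, 357, 421, 300.3 and 286 and young libraries to 66.9, 67.7, 78.7, 63.2 and 70.2. Naive cells were as far apart, with 572 and 548 in aged naive cells, against 73.9 and 87.4 in young naive cells. Batch 6 gave 188 in aged Tterm 6, against 79.9 and 104 in young Tterm 6 and 7. In the one starting at 61488730, aged libraries averaged 892 ± 120.3 and young libraries 219.5 ± 23.9 (SD, n = 5 each), but batch 6 held 572 in aged Tterm 6, against 219 and 622 in young Tterm 6 and 7, with young 7 above the aged library. Around Prrx1, a paired-related homeobox gene, and Gorab, 6 of 6 tested peaks were higher, with sums of 349, 419.6, 533, 469 and 322 in aged and 99.7, 95.3, 128, 132 and 79.5 in young libraries, and the groups did not overlap. Batch 6 held 99.2 in aged Tterm 6, against 91.0 and 179.6 in young Tterm 6 and 7 there, so the aged library lay between the young ones. At Gramd3, 16 of 36 peaks in the run were higher (sum 4323 ± 539 in aged, 2614 ± 261 in young, SD, n = 5 each), and at the Ms4a4 and Ms4a6 genes, a family of membrane proteins, 11 of 56 were (6467 ± 833 in aged, 4679.9 ± 275 in young). In batch 6 the Gramd3 sum was 3677 in aged Tterm 6, against 4548 and 3889 in young Tterm 6 and 7, the opposite order, and the Ms4a sum was 5230.0 in aged Tterm 6, against 5797 and 4948 in young Tterm 6 and 7, between the young libraries. Ms4a4 genes are close copies, so reads may be shared between them.

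The longest run was lower: 29 of 32 tested peaks over 1107.91 kb of chromosome 5 (10866105 to 11974013), at Speer1, Gm5861, Gm6460 and 4933402N22Rik. Sums were 2427, 2929, 3026, 3219 and 3046 in aged and 4568, 6846, 7082, 5878 and 5746 in young libraries. Every aged sum lay below every young one, and batch 6 held 2497 in aged Tterm 6, against 8096 and 3803 in young Tterm 6 and 7. Naive cells had the opposite order, 1739 and 1633 in aged naive cells, against 954 and 934 in young naive cells, while none of the 29 peaks was positive in endogenous aged Tterm. This is a multi-copy gene family, so how reads were assigned among copies is uncertain. At Spry2, an inhibitor of receptor tyrosine kinase signalling, and Trim52, 10 of 13 peaks were lower (sum 1137 ± 170.0 in aged, 2629 ± 535 in young), and at Cers6, a ceramide synthase, 9 of 16 were (919 ± 180.4 in aged, 1993 ± 269.9 in young). Batch 6 held 1725 in aged Tterm 6, against 2101 and 2133 in young Tterm 6 and 7 in the Spry2 run, and 1489 in aged Tterm 6, against 1849.7 and 1492 in young Tterm 6 and 7 in the Cers6 run. In the Spry2 run, 9 of the 10 called peaks were higher with age in naive cells. In the Ikzf2 run, at the gene of the zinc finger factor Helios, all 5 tested peaks were lower, with sums of 330.1, 432, 491, 419 and 575 in aged and 635, 789, 1016, 861 and 870.1 in young libraries, and naive cells showed 516 and 478 in aged naive cells, against 995 and 1022 in young naive cells. Aged Tterm 6, at 929.5, lay within its young batch mates at 794 and 995. Of all 29 tested peaks given to Ikzf2, 6 were lower.

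**Figure D3:**
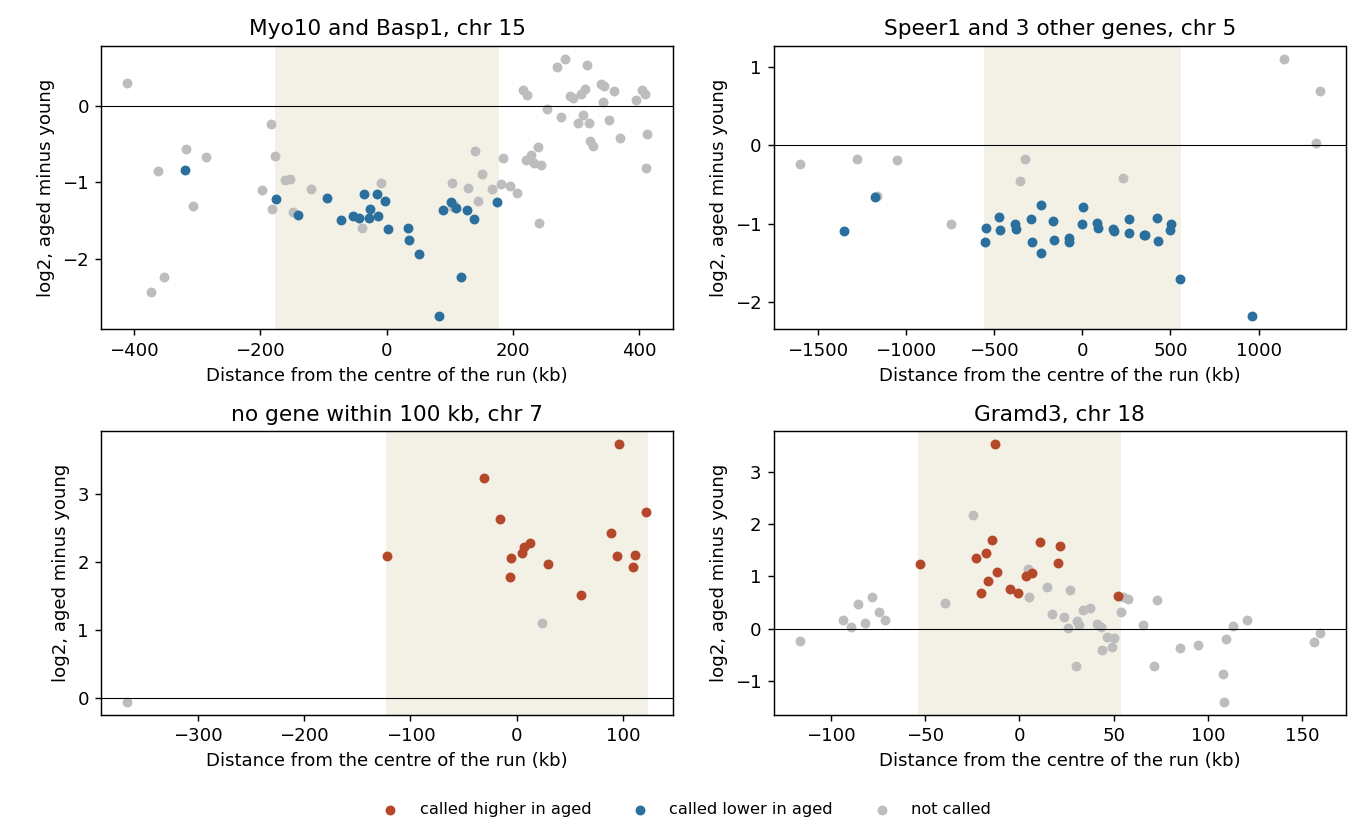
The log2 difference (aged minus young OT-1 Tterm) of each tested peak in and around 4 runs, against its distance in kb from the middle of the run; coloured points were called and the run is shaded. Within the shaded runs of chromosomes 15, 5 and 7 every tested peak lies on 1 side of 0, called or not, while the Gramd3 run on chromosome 18 has 31 of 36 above 0.

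Peaks of the listed genes made up a small part of the calls, and the shares called stand beside the 1.87% (higher) and 0.518% (lower) of all peaks. Of 1870 tested peaks given to 186 genes on the lists, 47 were higher and 11 lower, with a median difference of 0.12, beside 0.03 for all tested peaks. In the fit of all 13 OT-1 Tterm libraries with a batch 6 term, 2 peaks of the progenitor list were lower and at most 1 peak of any other list was called. Progenitor exhausted genes had 13 higher and 4 lower peaks of 371 (3.50% and 1.08%; median 0.09; 4 to 18 higher when 1 library was left out). In batch 6, 4 of the 13 higher peaks were positive and 1 of the 4 lower ones negative. All 4 lower ones belong to Kit. The site chr5:75661592-75663082, 4870 bp from Kit, held 91.5, 84.6, 93.5, 106 and 77.2 in aged and 249.98, 229, 284, 287 and 251 in young libraries. Each aged library lay below each young one (log2 -1.51 ± 0.14, adjusted p 1.4e-05), and this call stood under every alternative tried. At this site, naive cells held 25.2 and 24.8 in aged naive cells, against 88.7 and 97.8 in young naive cells. Endogenous Tterm had the opposite sign at the 4 Kit peaks (log2 0.34, 0.57, 1.04 and 0.43).

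The higher progenitor peaks lay at 6 sites of Bach2, 3 of Foxp1, 2 of Gpr183 and 1 each of Ccr7 and Tcf7. Bach2, a repressor that keeps T cells in a less differentiated state, held 563 ± 59.4 in aged and 346 ± 53.8 in young libraries at chr4:32343157-32344683 (SD, n = 5 each; log2 0.71 ± 0.14, adjusted p 0.00879). Gpr183, an oxysterol receptor that guides cell migration, held 962 ± 96.9 in aged and 604 ± 56.7 in young libraries at chr14:121954282-121955876 (log2 0.67 ± 0.13, adjusted p 0.00632). Tcf7, the gene of TCF-1, held 859, 1054, 1059, 1201 and 878 in aged and 571, 763, 762, 661 and 607 in young libraries at chr11:52299165-52300203. The ages did not overlap (log2 0.58 ± 0.14, adjusted p 0.0295), but the call was lost without aged 2, 3 or 4 or young 4 or 5. In batch 6 this site held 508 in aged Tterm 6, against 937 and 639 in young Tterm 6 and 7, so the aged library was the lowest of the 3. Slamf6, whose product was used in the sort, had no called peak (lowest p at chr1:171961225-171961975, log2 0.56 ± 0.33, adjusted p 0.457).

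Terminally exhausted genes had 5 higher and no lower peaks of 255 (1.96% higher; median 0.18; 8 and 4 with equal totals, 1 to 6 higher with a library left out). They were 1 site of Entpd1, 3 of Nfatc1 and 1 of Ccl3, and 0 of the 5 were positive in batch 6. Inside Entpd1, the gene of the ectonucleotidase CD39, chr19:40639547-40640958 held 394, 393, 472, 408 and 321 in aged and 179, 239, 265, 216 and 208 in young libraries. No values overlapped (log2 0.84 ± 0.14, adjusted p 0.00308). Naive cells did not show the increase, 61.3 and 66.7 in aged naive cells, against 86.1 and 80.2 in young naive cells, and the interaction of age and cell state was 1.22 (limma, adjusted p = 0.00684). Batch 6 held 283 in aged Tterm 6, against 452 and 235 in young Tterm 6 and 7. Nfatc1, a calcium-driven factor of exhaustion, held 675 ± 97.1 in aged and 403 ± 92.6 in young libraries at chr18:80684226-80685267 (log2 0.76 ± 0.16, adjusted p 0.0171; not called without aged 2, aged 3 or young 5). There the naive age difference was larger still, at 2.39. Not called at their peak of lowest p were Havcr2 (log2 0.39 ± 0.12, adjusted p 0.0988), Pdcd1 (log2 0.45 ± 0.18, adjusted p 0.217) and Tox (log2 0.69 ± 0.22, adjusted p 0.107). At the Havcr2 peak, aged libraries held 756, 803, 904, 878 and 740.5 and young libraries 567, 666, 645, 615 and 616, without overlap.

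Effector genes had 6 higher and no lower peaks of 190 (3.16% higher; median 0.22; 2 to 11 with a library left out), 2 of Ifng, 3 of Runx3 and 1 of Prf1, the gene of perforin, and 1 of the 6 was positive in batch 6. At chr10:118480575-118481625, 34681 bp from Ifng, the gene of interferon gamma, aged libraries held 178, 186, 234, 184 and 137 and young libraries 87.4, 91.5, 123, 80.6 and 85.4. Every aged value was above every young one (log2 0.96 ± 0.17, adjusted p 0.00389). Naive cells held 110.0 and 106 in aged naive cells, against 129.8 and 136 in young naive cells (interaction 1.26, adjusted p = 0.0133), and batch 6 150.2 in aged Tterm 6, against 115 and 138 in young Tterm 6 and 7. Runx3, which sets the CD8 programme, held 454 ± 54.7 in aged and 295 ± 16.1 in young libraries at chr4:135114239-135115626 (log2 0.61 ± 0.13, adjusted p 0.0128). Gzmb (log2 0.63 ± 0.22, adjusted p 0.15) and Gzmk (log2 -0.26 ± 0.14, adjusted p 0.393), granzyme genes, were not called at their peak of lowest p. At Gzmk the naive age difference was 1.40, so that the interaction was -1.66 (adjusted p = 0.000488).

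T cell receptor and costimulation genes had 6 higher peaks of 274, among them 2 each of Fyn and Cd28 and 1 of Lck, and 1 lower, of Nfatc2 (2.19% and 0.365%; median 0.17; 2 to 10 higher with a library left out). Lck, the kinase that starts receptor signalling, held 683 ± 21.8 in aged and 465 ± 56.9 in young libraries at chr4:129569887-129570602 (log2 0.56 ± 0.12, adjusted p 0.0185; not called without aged 4, young 4 or young 5). With equal totals the list had 17 higher and 2 lower peaks, and 0 of its 6 higher peaks were positive in batch 6. The AP-1 family had 1 higher peak of 105, of Batf3 (log2 0.55 ± 0.14, adjusted p 0.0379), which was lost in most fits that left a library out. Tissue residency genes had 4 higher of 172 (1 to 7 with a library left out), the 3 of Runx3 and 1 of Itga1, an integrin chain (log2 1.66 ± 0.38, adjusted p 0.0256; not called without aged 2, 3 or 4 or young 4).

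Interferon response genes had 3 higher of 60 (median 0.07, and -0.01 with equal totals). Irf1, an interferon-induced factor, held 306, 286, 287, 289 and 233 in aged and 131, 170.5, 147, 140.1 and 132 in young libraries at chr11:53774333-53775661. The groups were apart (log2 0.96 ± 0.14, adjusted p 0.000732), and the call was lost only in the 2 fits with batch 6, where the site held 135 in aged Tterm 6, against 254 and 149 in young Tterm 6 and 7. The others were Ifih1, an RNA sensor (log2 1.3 ± 0.27, adjusted p 0.0154; lost without aged 3), and Usp18 (log2 1.31 ± 0.32, adjusted p 0.0358; lost without any of aged 1, 2, 3 and 5 or young 2, 4 and 5). Senescence genes had 4 higher of 74 (median 0.16): sites 81945 and 84402 bp from Cdkn2b, a cell cycle inhibitor (0.89 and 1.34), a site near the chemokine gene Ccl2 (1.27) and one near the kinase gene Mapk14 (0.58). The list named oxidative and mitochondrial metabolism had 3 higher of 111, with a median of -0.03. Of these, 1 was of Nrf1. The other 2 lay 37077 and 35157 bp from Odc1, the gene of ornithine decarboxylase, an enzyme of polyamine synthesis. No peak passed on the lists of age-associated CD8 genes (0 of 108, 18 before adjustment; 2 lower by edgeR, 1 higher and 2 lower by DESeq2), virtual memory (0 of 54, 11 before adjustment; 1 lower by edgeR, 5 higher and 1 lower by DESeq2) and cell cycle genes (0 of 55, 8 before adjustment; 0 by edgeR, 1 higher by DESeq2). The medians of the age-associated and cell cycle lists were 0.04 and 0.02, and turned to -0.03 and -0.06 with equal totals. The median of the virtual memory list was 0.20, and 0.12 with equal totals.

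Lists of other cells were looked at as a check of the sort. The B cell, myeloid and NK cell lists had no call among 34, 36 and 19 peaks (5, 3 and 2 before adjustment; 0 each by edgeR), and DESeq2 called 0, 1 and 1. Their summed levels overlapped between the ages: 1341 to 1565 in aged and 1518 to 1584 in young libraries for B cell, 4083 to 4641 in aged and 4026 to 4478 in young for myeloid, and 2599 to 3508 in aged and 2377 to 3338 in young for NK cell genes. Melanoma genes had 1 higher of 12, near Sox10, at 385 ± 46.2 in aged and 260.0 ± 36.2 in young libraries (log2 0.57 ± 0.14, adjusted p 0.0351; lost without aged 2, 3 or 4 or young 4 or 5), and the list summed to 1182 to 1392 in aged and 1046 to 1238 in young libraries. The CD4 and regulatory T cell list had 3 higher and 6 lower of 73 (2 to 6 of each with a library left out), the higher at Il2ra, the interleukin 2 receptor alpha chain, and the lower at Ikzf2. Both genes are also used by CD8 cells, and Foxp3 and Cd4 had no called peak. The Il2ra site chr2:11625782-11626350 held 71.6, 93.4, 108, 72.6 and 57.3 in aged and 27.3, 26.3, 39.3, 19.2 and 28.1 in young libraries, without overlap (log2 1.49 ± 0.23, adjusted p 0.00151). CD8 identity genes had 1 higher of 81, near Thy1. Whether other cells had a part in any of these differences was not tested.

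**Figure D4:**
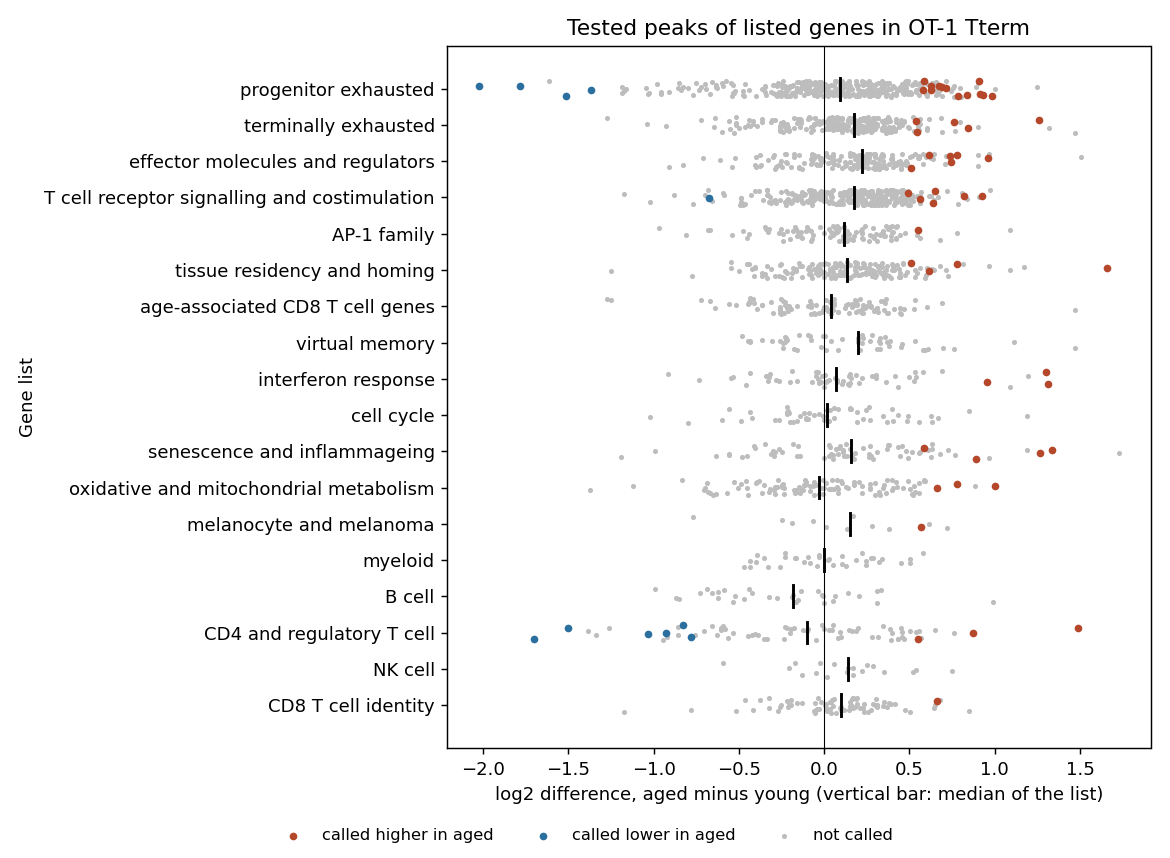
For each gene list, the log2 difference (aged minus young OT-1 Tterm) of every tested peak given to its genes, with called peaks coloured and the list median as a vertical bar. Medians lie between -0.18 and 0.22, and called peaks are a small part of every list.

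The batch 6 libraries, left out of the calls, had the opposite sign at most of the higher peaks. Of the 1573 higher peaks, 526 (33.4%) were higher in aged Tterm 6 than in the mean of young Tterm 6 and 7, less than the 47.1% of all tested peaks. Among 217 higher peaks with a log2 difference of 1.5 or more the share was 64.1%, among those of 1 to 1.5 it was 44.8%, and below 1 it was 22.5%. Of the 436 lower peaks, 246 (56.4%) were lower in batch 6 too, beside 52.9% of all peaks, and here the share was 74.1% below a size of 1, 51.1% from 1 to 1.5 and 42.7% at 1.5 or more. At the 217 largest higher peaks the median level was 51.9 to 68.4 in aged and 12.8 to 14.5 in young libraries of batch 4 & 5, but 26.5 in aged Tterm 6, against 17.8 and 21.1 in young Tterm 6 and 7. The young batch 6 libraries differed from each other by 2-fold or more at 45.2% of these peaks, beside 24.7% for a pair of young libraries of batch 4 & 5. The peaks were called in the batch 4 & 5 libraries, which favours agreement within an age there. Over all tested peaks these shares were 19.0% and 14.8%. Batch 6 is 1 library against 2, so this is a description without a test, and batch and depth differ together.

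In naive cells of batch 3 the signs were compared in the same way. Of the higher peaks, 76.0% were higher in aged naive cells (56.9% of all peaks), and of the lower peaks 68.8% were lower (43.1% of all). At the largest higher peaks naive medians were 23.5 and 24.4 in aged and 10.3 and 10.4 in young cells. The age effect in Tterm minus that in naive cells passed at 4168 peaks (4.96%; limma interaction over 14 libraries), 1249 with a larger and 2919 with a smaller value in Tterm. The median interaction over all peaks was -0.12, and 0.04 with equal totals, where 2239 were larger and 3088 smaller, which is 42.0% larger in place of 30.0%. Cell state and batch differ together here, and batch drops out of the interaction only where it adds equally to both ages. Endogenous Tterm of the same tumour model (3 aged, 5 young, in a table scaled on its own, peaks matched at 50% overlap) were on the same side at 947 of 1352 matched higher peaks (70.0%, beside 49.8% of all matched peaks) and 253 of 405 lower ones (62.5%, beside 50.2%), and at 86 of 103 (83.5%) and 63 of 100 of those with a size of 1.5 or more.

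**Figure D5:**
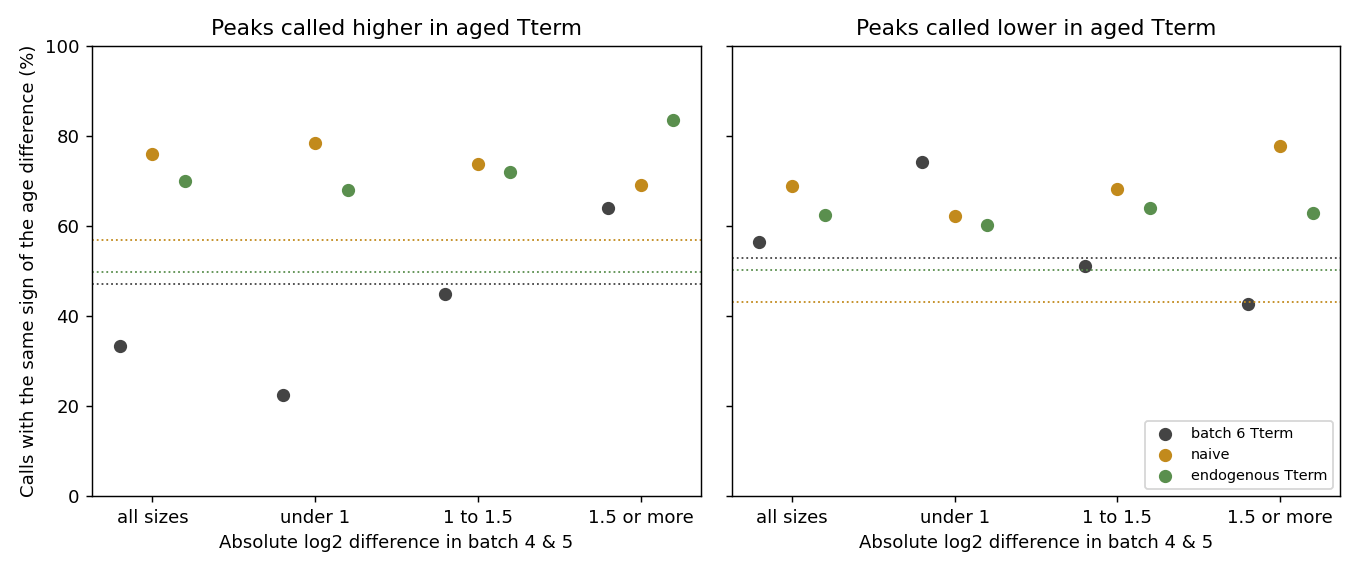
Percent of called peaks with the same sign of the age difference in batch 6 OT-1 Tterm, naive cells and endogenous Tterm, by direction and size of the call, with the percent over all tested peaks as dotted lines. The share climbs with size for higher peaks in batch 6, 22.5% to 64.1%, and drops with size for lower peaks, 74.1% to 42.7%. Larger calls of both directions were also less deeply read.

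The position of the called peaks relative to genes was set beside that of all tested peaks. Within 1000 bp of a gene end lay 7.31% of the higher and 23.2% of the lower peaks, beside 18.5% of all tested peaks. Inside genes lay 50.2% of the higher and 38.1% of the lower peaks, beside 45.6% of all, and between genes 41.3% and 38.8%, beside 35.7%. No gene lay within 100000 bp for 11.5% of the higher and 11.9% of the lower peaks, against 6.01% of all. Chromosome X had 17 higher peaks (0.781% of its 2178) and 1 lower. Lower peaks took more than 1% of the tested peaks on chromosomes 1, 5 and 14, which hold the Msc, Nav1, Ikzf2, Speer1 and Spry2 runs or sites, and 33 of 3576 on chromosome 15 with Myo10.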

How the data were processed

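As deposited by the authors, the values are signal: reads per peak divided by a size factor per library. The submitters' processing notes name Bowtie2 2.2.9, Picard 2.8.0, SAMtools 1.3.1, MACS2 2.1.1, DESeq2 1.28.1 and mm10; read shifting and peak merging are not given in the sources used here. Whole reads were recovered for 100% of values (tolerance 0.05 reads) and used for depth and as counts for edgeR 4.0.16 and DESeq2 1.42.0; edgeR's quasi-likelihood test called 2084 higher and 805 lower peaks. The main test was limma 3.58.1 (R 4.3.3) with an intensity trend on log2(normalized reads + 1), a pseudocount of 1, over peaks with a table mean of 10 or more, called at an adjusted p under 0.05, and tested on simulated reads first. Python 3.11.15 was used for tables and matplotlib 3.10.9 for plots.

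Peaks took the name of the closest protein-coding RefSeq gene, of 21889, within 100000 bp of the gene body, which for peaks between genes is a guess from distance. Named peaks were the 12 of largest difference in each direction (libraries of the ages not overlapping, higher group averaging at least 30), the 3 of lowest p per gene list, and the lowest-p peak of fixed marker genes. Other peaks named, the size classes, the runs and the match to endogenous cells were chosen after values were seen. The libraries, members and gene lists were chosen with earlier results of these data known. Whether aged and young libraries of the same number are paired is not stated in the labels, and the main test did not pair them. Alternatives were other pseudocounts, filters and scalings, array weights, edgeR, DESeq2, a replicate block, fits with batch 6 and each library left out.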

Additional observations from a re-analysis of the deposited data

Results flagged for a closer look

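Among 120 sets of 5 libraries looked at at the 60 named peaks, 13 had 1 library far from the other 4 by Dixon's criterion (critical value 0.71), where chance flags about 1 in 20 sets. Aged 3 stood highest at both Asic2 peaks, with 103 normalized reads at 81411035 on chromosome 11 (others 34.4 to 46.4) and 154 at 81446159 (others 70.3 to 94.3). It was also highest at the gene-free peak at 124874009 on chromosome 7 (89.2; others 51.7 to 60.1), at the Kit peak at 75668657 on chromosome 5 (34.6; others 5.59 to 13.3) and at the Itga1 peak (33.8; others 19.9 to 22.6). Aged 5 was highest at the Trat1 peak (34.6; others 3.53 to 10.6) and lowest at the Irf1 peak (233; others 286 to 306) and the Cdkn2b peak at 89392977 (93.2; others 127 to 134). Aged 4 was lowest at the Fyn peak at 39418408 (72.6; others 94.1 to 103), and aged 1 at the Pdcd1 peak at 94091389 (70.3; others 94.96 to 101). Among young libraries, young 3 was highest at the gene-free peak at 124930372 on chromosome 7 (32.1; others 18.7 to 21.9) and at the Ifng peak (123; others 80.6 to 91.5), and young 2 had 0 reads at the Gramd3 peak at 56439217 (others 2.07 to 2.75).

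At 11 of the 60 named peaks the age difference in OT-1 Tterm differed from that in naive cells by the limma interaction, beside 4.96% of all tested peaks. The named peaks were chosen by size or p of the age difference in the same Tterm libraries. That choice favours a large interaction, so the count is a description, and the same holds for the interactions given with single peaks above. Values are log2 of Tterm minus naive with the adjusted p. The age difference was larger in Tterm at the gene-free chromosome 7 peaks (5.45, 0.0107, at 124874009, and 1.87, 0.0118, at 124930372). It was also larger at the Asic2 peaks (4.59, 0.00204, and 3.51, 0.0015). Smaller such excesses stood at Entpd1 (1.22, 0.00684), Ifng (1.26, 0.0133), Runx3 (1.07, 0.00699) and the peak near Sox10 (1.05, 0.0158). The value was lower in Tterm at Fam155a (-2.27, 0.0342, at 9824114), at Nfatc1 (-1.63, 0.00224), where both cell states were higher with age, and at Gzmk (-1.66, 0.000488), where only naive cells had a large positive value.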

How the results depend on the processing

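Counts of higher and lower peaks moved with the choice of libraries and with the tool, scaling or block. Without 1 library at a time they ranged from 636 to 1923 higher and 274 to 478 lower. Fits with a batch 6 term gave 273 and 146 (13 OT-1 Tterm libraries) and 150 and 74 (all 21). DESeq2 gave 3466 and 1491 with 24456 peaks left without an adjusted p, array weights 3045 and 703, edgeR 805 lower, equal library totals 1204 lower and quantile normalization 1547 lower. Same-numbered aged and young libraries correlated at 0.26, -0.03, 0.23, 0.01 and 0.01 in their deviations, and aged 2 with young 3 at 0.27. Whether the numbers pair the libraries is not settled by these values. The replicate block gave 4664 higher and 1147 lower peaks. For the difference from the naive age effect, higher peaks numbered 2239 with equal totals, 2185 after quantile normalization, 2104 by edgeR and 2580 by DESeq2, and leaving out 1 Tterm library gave 984 to 1582 higher and 2412 to 4326 lower. The same-sign share in batch 6 was 28.6% of higher and 65.5% of lower calls by edgeR, and 29.6 to 38.4% and 51.2 to 65.9% with 1 library left out. Of 53 named called peaks, 13 stayed called under all 23 alternatives. The causes were not tested.

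Depth limits single reads: at many of the largest differences 1 age holds under 10 normalized reads per library. Peaks given to list genes within 10000 bp only leave 11 higher peaks for the progenitor, 3 for the terminal and 2 for the effector list. Batches 4 and 5 share 1 entry and could not be separated, and whether libraries of an age share animals is not stated in the labels.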

Other observations

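Called peaks were given to 1184 genes, 952 with higher peaks only, 227 with lower only and 5 with both, and of 68 genes with 4 or more called peaks 66 had them in 1 direction; the genes below were chosen for this after their values were seen, and their counts are a description. Higher in aged OT-1 Tterm were 9 of 53 tested peaks of Inpp4b, a phosphoinositide phosphatase (0.47 to 1.42 on the log2 scale), 9 of 52 of Wwox, an oxidoreductase with WW domains (0.60 to 1.79), 7 of 20 of Coro2a, an actin-binding coronin (0.49 to 1.70), 6 of 43 of Bcl2, an inhibitor of apoptosis (0.69 to 1.56), 6 of 24 of Ifngr1, a chain of the interferon gamma receptor (0.65 to 0.81), and 5 of Pik3cd, the leukocyte phosphoinositide 3-kinase subunit (0.63 to 1.47). With 1 library left out these counts ranged from 3 to 10 for Inpp4b, 6 to 10 for Wwox, 3 to 8 for Coro2a, 3 to 7 for Bcl2, 3 to 8 for Ifngr1 and 2 to 5 for Pik3cd. In batch 6, 3 of the 9 Inpp4b, 4 of the 9 Wwox, 0 of the 7 Coro2a, 2 of the 6 Bcl2, 1 of the 6 Ifngr1 and 0 of the 5 Pik3cd called peaks were positive, while in naive cells 5, 4, 7, 6, 6 and 5 were.

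Lower in aged OT-1 Tterm were 6 of 26 tested peaks of Trerf1, a zinc finger regulator (-1.37 to -0.72), 4 of Cxcr4, the receptor for CXCL12 (-1.08 to -0.62), 4 of Tcf4, an E protein (-1.77 to -0.81), and 6 of 14 of Ank3 (down to -2.58), where a single peak was higher. With 1 library left out the lower peaks numbered 3 to 8 for Trerf1, 1 to 4 for Cxcr4, 4 for Tcf4 and 4 to 6 for Ank3. Batch 6 was positive at 4 of the 6 Trerf1 and 3 of the 4 Tcf4 peaks, at 1 of the 4 Cxcr4 peaks, and at 6 of the 7 called Ank3 peaks, the higher one counted among the 7. Summed over the 17 tested peaks around Cxcr4, aged libraries held 1543, 1996, 1996, 2033 and 1825 normalized reads and young libraries 2034, 2575, 2914, 2478 and 2584. The ages met at the edge, with aged 4 at 2033 and young 1 at 2034. Batch 6 held 2003 in aged Tterm 6, against 3214 and 2112 in young Tterm 6 and 7, and the naive sums had the other order, with 3680.2 and 3547 in aged naive cells, against 2948 and 2966 in young naive cells. At the 4 called peaks alone, 1 was positive in naive cells.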
